A study of Rattus norvegicus with 6 samples.

Results

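The complement genes C1r, C1s, C2, C3, Cfb, Serping1, Cd55 and Cd59 were followed in RNA sequencing libraries from rat heart cultures. They were taken by gene name from tables of 18077 rows. Of the 8 names, 7 had a row, each name in 1 row, and C2 was not analysed here. The cultures are labelled neonatal rat cardiomyocytes, prepared from pups 1 to 3 days old with pre-plating and BrdU against fibroblasts. All of them received the saturated fatty acid palmitate at 500 μM for 24 h and, by their names, an adenovirus, and were harvested after 48 h, counted from a start the labels do not give. The tested cultures are labelled Ad-RNF128, RNF128 overexpression (3 libraries), and the controls Ad-GFP, with treatment "WT" (3 libraries). RNF128 is a membrane-bound ubiquitin ligase, and green fluorescent protein stands in for it in the control vector. The labels name no promoter for the vectors, no separate animals and no untreated or virus-free cultures, so p-values measure only the spread between these libraries, which may be technical.

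Complement is a chain of plasma proteases and binding proteins that tags cells and microbes. In the classical pathway the proteases C1r and C1s, bound to C1q, cut C4 and C2, and the lectin pathway cuts the same substrates after binding sugars. Both lead to the cutting of C3, the central protein, and factor B (Cfb) builds the amplifying convertase of the alternative pathway on C3b. Serping1 (C1 inhibitor) blocks C1r and C1s, Cd55 takes convertases apart on the cell surface, and Cd59 stops the membrane attack complex. The liver makes most circulating complement, but fibroblasts, muscle and other tissue cells also make several components locally, and interferons and inflammatory cytokines are known inducers of some of them.

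RefSeq (build GRCr8) gave upstream sequence for 3 of the 8 genes, C1r, C3 and Cd55. C1s, C2, Cfb, Serping1 and Cd59 were not among the upstream sequences used here. C1r and C3 are shown because their counts behaved differently, C1r being steady in 5 of the libraries and C3 not. Each line holds the 250 bases before the annotated start, 5′ to 3′ on the gene's strand, at chr4:159098763-159099012 on the plus strand for C1r and chr9:2201340-2201589 on the minus strand for C3. Capitals mark matches, on either strand, to TTNNGNAA, a loose form of the site of C/EBP factors, which are known to act on the C3 gene in human.
C1r: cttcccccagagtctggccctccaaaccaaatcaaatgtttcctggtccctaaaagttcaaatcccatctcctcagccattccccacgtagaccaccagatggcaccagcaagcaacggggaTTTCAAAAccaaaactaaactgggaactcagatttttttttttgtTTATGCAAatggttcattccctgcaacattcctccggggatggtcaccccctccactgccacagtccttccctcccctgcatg
C3: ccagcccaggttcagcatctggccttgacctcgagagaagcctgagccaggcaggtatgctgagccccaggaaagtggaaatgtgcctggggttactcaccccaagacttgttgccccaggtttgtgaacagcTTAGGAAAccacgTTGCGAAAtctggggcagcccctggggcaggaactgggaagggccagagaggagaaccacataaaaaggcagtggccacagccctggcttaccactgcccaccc
The 2 matches of C1r lie 128 to 121 and 83 to 76 bases before the start, and the 2 stretches of C3 lie 117 to 110 and 104 to 97 bases before it, the nearer one matching on both strands. The window of Cd55, not shown, holds no match to TTNNGNAA. Of 33360 distinct upstream windows of this length, 37.2% hold at least 1 match. The windows of C1r, C3 and Cd55 hold no match to the interferon regulatory factor core AANNGAAA (23.4% of windows do), the STAT site TTCNNNGAA (7.7%) or the kB consensus (6.3%), on either strand.

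The libraries need 3 remarks before the values. Rnf128 itself had 1, 3 and 1 counts in the libraries labelled Ad-RNF128 and 0, 2 and 1 counts in Ad-GFP, so the rat gene's counts do not bear out the label, and directions below refer to labels. Totals ran from 17099149 to 21708973 counts in the libraries labelled Ad-RNF128 and from 16352843 to 21332585 in Ad-GFP. Ad-GFP replicate 1 stood apart, with a highest Spearman correlation of 0.818 with any other library, against at least 0.988 for the other 5, and it is shown separately throughout. The labelled cell type was checked against its markers. The summed level of 10 markers was 38.9 to 118 CPM (counts scaled by the library's total, to a common size of 1000000 counts) in the libraries labelled Ad-RNF128, against 399 and 398 CPM in Ad-GFP replicates 2 and 3 and 79.3 CPM in Ad-GFP replicate 1. Most of the gap was Tnnt2, cardiac troponin T, at 57.4, 42.3 and 34 CPM in the libraries labelled Ad-RNF128, against 342 and 350 CPM in Ad-GFP replicates 2 and 3 and 13.3 CPM in Ad-GFP replicate 1. Myh6, the main adult rat cardiac myosin gene, did not exceed 16 CPM in any library. The summed level of 9 fibroblast markers was 10540 to 11450 CPM in the libraries labelled Ad-RNF128, against 38420 and 40050 CPM in Ad-GFP replicates 2 and 3 and 3243 CPM in Ad-GFP replicate 1. Most of this sum was the collagen genes Col1a1, Col1a2 and Col3a1. Thy1 went the other way, at 305, 287 and 301 CPM in the libraries labelled Ad-RNF128. It was at 224 and 251 CPM in Ad-GFP replicates 2 and 3 and 286 CPM in Ad-GFP replicate 1. Pdgfra, Dcn and Lum did not exceed 2.86 CPM in any library, and the fibroblast transcription factor gene Tcf21 was at 0 in 4 of the 6 libraries. Markers of smooth muscle summed to 4693 to 5826 CPM over the 6 libraries, of endothelium to 4.78 to 8.19 CPM, and of hepatocytes, the main source of plasma complement, to at most 0.516 CPM. Most of the smooth muscle sum was Acta2 and Tagln. Its marker Myh11 was at 27, 27.4 and 28.1 CPM in the libraries labelled Ad-RNF128. It was at 7.42 and 9.09 CPM in Ad-GFP replicates 2 and 3 and 0.795 CPM in Ad-GFP replicate 1. Set against Ad-GFP replicates 2 and 3, Tagln and Cnn1 were also higher and Acta2 was lower. The part of cell makeup in the values below was not tested. In bulk RNA, fewer cells of a type and less RNA per cell cannot be told apart.

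Set against Ad-GFP replicates 2 and 3, 3 of the 7 complement genes rose in the libraries labelled Ad-RNF128 (C1s, Cfb and Cd55), 1 fell (C1r, slightly) and 3 did not pass the test (C3, Serping1 and Cd59). The test was edgeR's quasi-likelihood test on 13173 genes, with a Benjamini-Hochberg adjusted p under 0.05. It called 56.9% of all genes, 28.9% higher and 28% lower, so passing it does not set these genes apart. Their median log2 change was 0.38, against 0.02 over all genes. The groups did not overlap in CPM for 4 of the 7, while 72.3% of all tested genes did not overlap. The median and these 4 include Serping1, which had enough counts to be tested only through the libraries labelled Ad-RNF128. They are therefore a description and support nothing. The other view of the data, all 6 libraries together, called none of the 7 with edgeR, DESeq2 or limma-voom, and 0 of them had an unadjusted edgeR p under 0.05. Over all 12863 genes the edgeR fit called 0 (0%), with 742 at an unadjusted p under 0.05, while DESeq2 called 386 and limma-voom 14. The lack of a call there does not show that a gene was unchanged. With Ad-GFP replicate 1 included the groups did not overlap for 3 of the 7, C1s, Cfb and Cd55, against 34% of all tested genes.

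**Figure D1:**
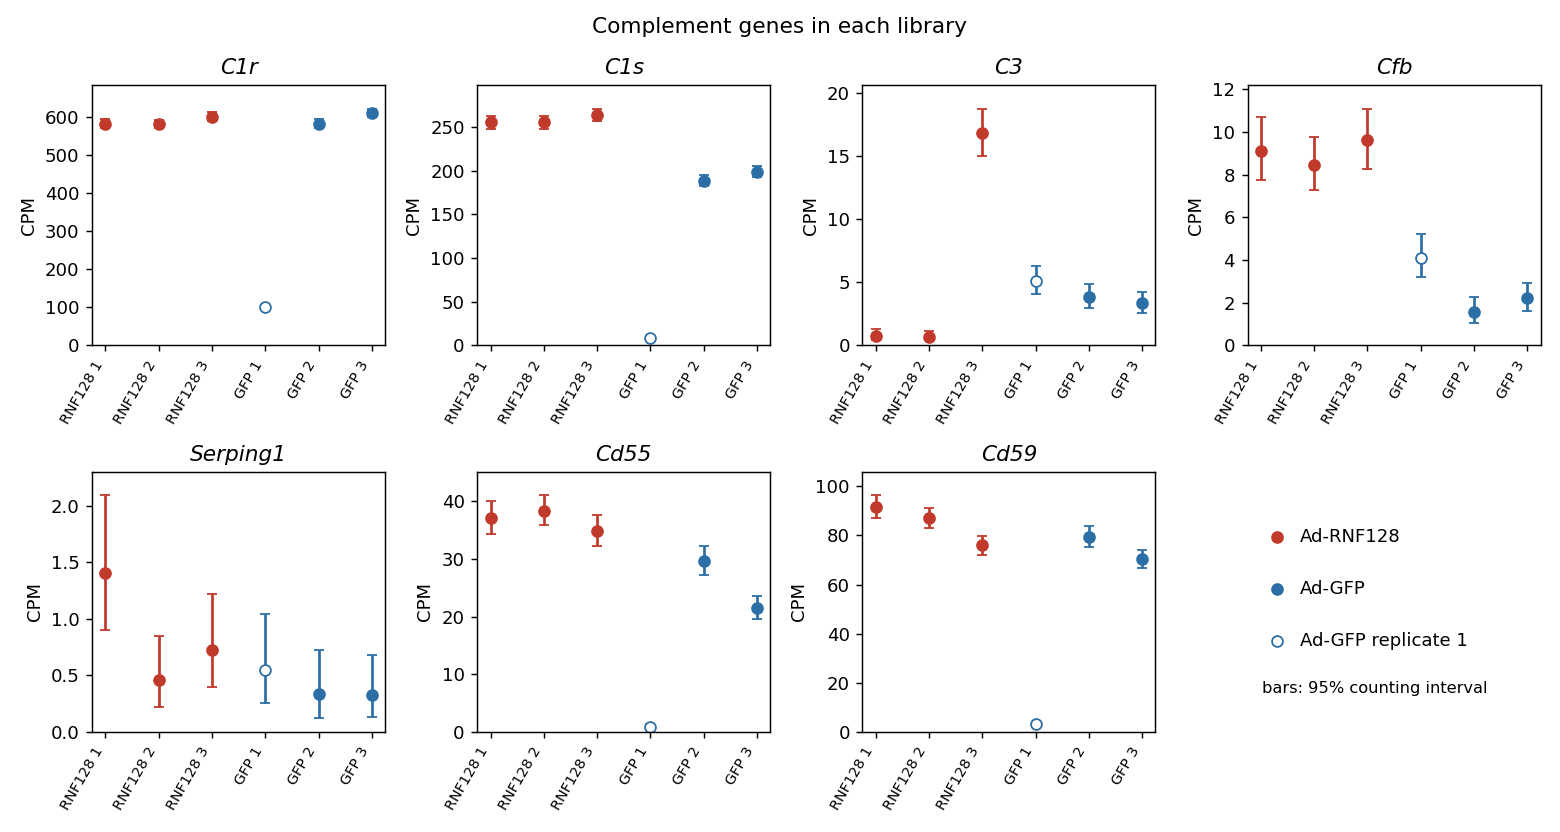
CPM of the 7 complement genes in each library (red, Ad-RNF128; blue, Ad-GFP; open, Ad-GFP replicate 1), with exact 95% Poisson intervals that cover counting error only; each panel has its own linear axis from 0. Cfb is higher in all 3 libraries labelled Ad-RNF128 than in any Ad-GFP library, C3 is high in Ad-RNF128 replicate 3 only, and C1r, C1s, Cd55 and Cd59 are lowest in Ad-GFP replicate 1.

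The classical pathway proteases were measured with the most reads. C1r (ENSRNOG00000011796) was at 582, 582 and 600.2 CPM in the libraries labelled Ad-RNF128, against 582 and 610.5 CPM in Ad-GFP replicates 2 and 3 and 101 CPM in Ad-GFP replicate 1. Apart from that last library the groups overlapped. Its log2 change was -0.17 ± 0.06 (SE), with an edgeR adjusted p of 0.0298, on edgeR's TMM scaling, which sets the bulk of genes equal between libraries. With library totals alone the change was -0.02 and the adjusted p 0.766, so the small fall of C1r rests on the scaling. Under that scaling the median over all genes tested lay at 0.17 in place of 0.02. The fall of C1r also lost its call without Ad-RNF128 replicate 1 (-0.15), without Ad-RNF128 replicate 2 (-0.15) and without Ad-GFP replicate 3 (-0.11), with edgeR adjusted p values of 0.112, 0.105 and 0.2. A RefSeq long non-coding RNA gene overlaps C1r, and since no source used here says whether counting was by strand, their reads cannot be told apart.

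C1s (ENSRNOG00000011971), the protease that C1r activates, was at 256, 255 and 264 CPM in the libraries labelled Ad-RNF128, against 188 and 199 CPM in Ad-GFP replicates 2 and 3 and 8.81 CPM in Ad-GFP replicate 1. Every library labelled Ad-RNF128 was above every Ad-GFP library. Without Ad-GFP replicate 1 its log2 change was 0.26 ± 0.07 (1.2-fold, edgeR adjusted p = 0.00359), and over 6 libraries 0.76 ± 0.81 (adjusted p = 0.831). RefSeq lists a C1s pseudogene, whose reads could be shared with C1s. C1r and C1s lie next to each other in RefSeq, with C1rl before them, and the 2 proteins work as partners in 1 complex.

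The count ratio of the partners differed between the labels. C1s had 0.439, 0.439 and 0.44 counts per C1r count in the libraries labelled Ad-RNF128, against 0.324 and 0.326 in Ad-GFP replicates 2 and 3 and 0.0874 in Ad-GFP replicate 1. This ratio within a library does not depend on scaling between libraries. It was nearly constant within each set of libraries, leaving out Ad-GFP replicate 1, and higher in all 3 labelled Ad-RNF128. The exact two-sided permutation p was 0.1 with and without Ad-GFP replicate 1, the smallest that either design allows. This test could not reach 0.05, so the ratio is a description.

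**Figure D2:**
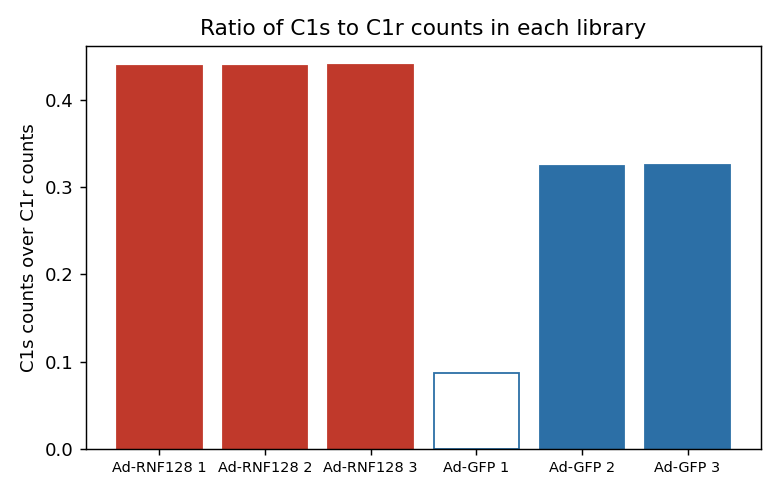
C1s counts divided by C1r counts in each library (bars from 0; red, Ad-RNF128; blue, Ad-GFP; open bar, Ad-GFP replicate 1). The libraries labelled Ad-RNF128 lie at 0.439 to 0.44, Ad-GFP replicates 2 and 3 at 0.324 and 0.326, and Ad-GFP replicate 1 at 0.0874.

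C3 (ENSRNOG00000046834) differed between libraries of 1 label. It had 13, 15 and 324 counts in replicates 1, 2 and 3 labelled Ad-RNF128, or 0.76, 0.691 and 16.8 CPM, against 69 and 71 counts (3.82 and 3.33 CPM) in replicates 2 and 3 labelled Ad-GFP and 83 counts (5.08 CPM) in replicate 1. The exact 95% Poisson intervals of the libraries labelled Ad-RNF128, 0.405 to 1.3, 0.387 to 1.14 and 15 to 18.8 CPM, leave a gap between replicate 3 and the other two. All Ad-GFP values, replicate 1 included, lay between the low and the high Ad-RNF128 values.

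The C3 comparison therefore turned on 1 library. With Ad-RNF128 replicate 3 its log2 change without Ad-GFP replicate 1 was 0.62 ± 0.85 (edgeR adjusted p = 0.555). Without Ad-RNF128 replicate 3 it was -2.44 ± 0.27, a level 0.185 times that of Ad-GFP, with an edgeR adjusted p of 9.33e-06. Leaving out Ad-RNF128 replicate 1 or 2 instead gave positive values up to 1.2. Over 6 libraries the change was -0.19 ± 1.35 (adjusted p = 0.99).

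The ratio of Ad-RNF128 replicate 3 to the mean of replicates 1 and 2 was 23.2 for C3. Among 13166 genes compared, 3 had a ratio that high, C3 included. For the other 6 complement genes it lay between 0.78, for Serping1, and 1.09, for Cfb. The 5 genes with the highest ratios, looked up after the C3 values were seen, were Grem1, a secreted BMP antagonist (66.8), Lcn2, the iron-siderophore carrier lipocalin 2 (33.5), C3, Pdgfra, a growth factor receptor used here as a fibroblast marker (11.5), and Mgp, matrix Gla protein (8.28).

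The high value in Ad-RNF128 replicate 3 follows from how these genes were picked. Grem1 was at 0.175, 0.23 and 13.6 CPM in the libraries labelled Ad-RNF128, against 2.77 and 2.06 CPM in Ad-GFP replicates 2 and 3 and 2.51 CPM in Ad-GFP replicate 1. Lcn2 was at 0.175, 0.23 and 6.8 CPM in the libraries labelled Ad-RNF128, against 1.72 and 1.22 CPM in Ad-GFP replicates 2 and 3 and 2.2 CPM in Ad-GFP replicate 1. In both, as in C3, every Ad-GFP value fell between the 2 low and the 1 high value labelled Ad-RNF128.

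Most of the 10 cardiomyocyte markers were lowest in the same library. Myh6 was at 14.3, 10.8 and 0.104 CPM in replicates 1, 2 and 3 labelled Ad-RNF128, against 13.4 and 11.1 CPM in Ad-GFP replicates 2 and 3 and 16 CPM in Ad-GFP replicate 1. The cardiac peptide gene Nppa and the atrial myosin light chain gene Myl7 were at 0 in Ad-RNF128 replicate 3 alone. Tnnt2, given above, and Myl4, an atrial myosin light chain gene at 5.26, 4.19 and 3.79 CPM in the libraries labelled Ad-RNF128, differed much less between these libraries. Of the 9 fibroblast markers, Pdgfra was high in this library while Col1a1, at 4020, 3660 and 3970 CPM in the libraries labelled Ad-RNF128, was not. The part of these differences in the C3 value was not tested.

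**Figure D3:**
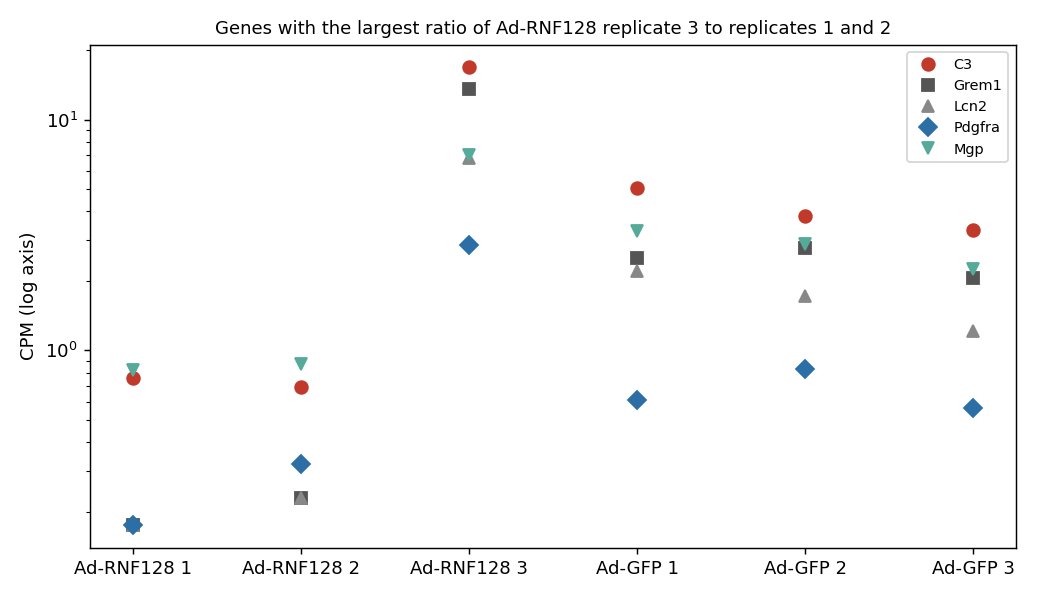
CPM, on a log axis, of the 5 genes with the largest ratio of Ad-RNF128 replicate 3 to Ad-RNF128 replicates 1 and 2, in each library. C3 and the other 4 genes are highest in Ad-RNF128 replicate 3 and lowest in Ad-RNF128 replicates 1 and 2, with all Ad-GFP libraries between them.

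Cfb (ENSRNOG00000051235), the alternative pathway protease, had the largest called change of the 7 genes in the fit without Ad-GFP replicate 1. It was at 9.12, 8.48 and 9.61 CPM in the libraries labelled Ad-RNF128, against 1.55 and 2.2 CPM in Ad-GFP replicates 2 and 3 and 4.1 CPM in Ad-GFP replicate 1. The libraries labelled Ad-RNF128 were close to each other and above every Ad-GFP library, though Ad-GFP replicate 1 was the highest of the controls. The log2 change was 2.10 ± 0.19 (4.28-fold, edgeR adjusted p = 3.06e-07), higher than that of 96.2% of all genes tested. Over 6 libraries it was 0.90 ± 0.75 (edgeR adjusted p = 0.749). In RefSeq Cfb lies next to C2, the classical pathway protease it resembles, so reads near their border may not be assignable to 1 of them.

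**Figure D4:**
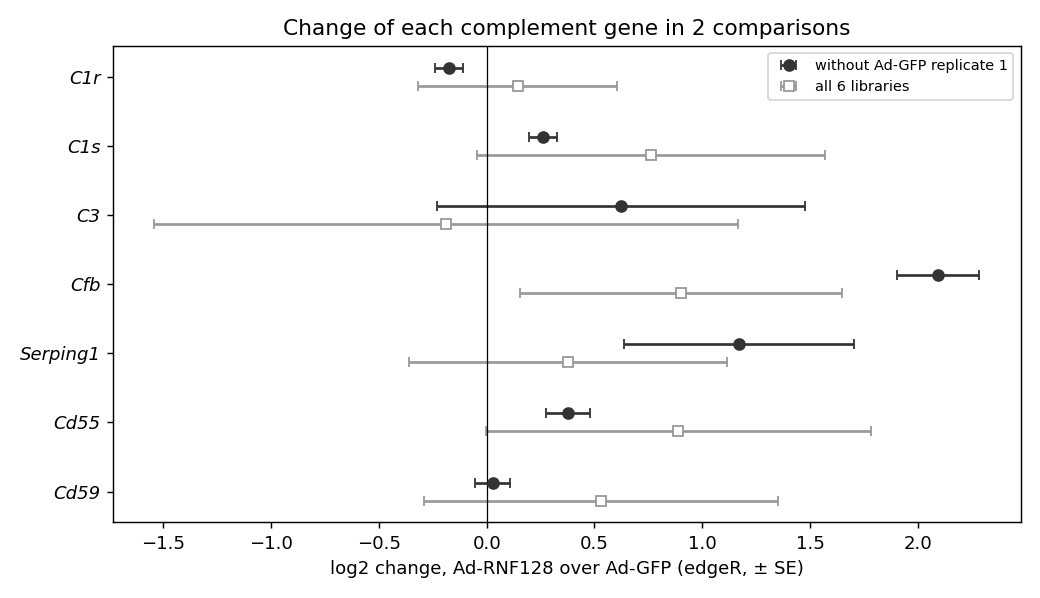
Log2 change of each complement gene (Ad-RNF128 over Ad-GFP, edgeR, bars ± SE) without Ad-GFP replicate 1 (filled circles) and over all 6 libraries (open squares). Cfb at 2.10 is the largest filled value; over all 6 libraries every bar is wider, and the bars of C1r, C1s, C3, Serping1, Cd55 and Cd59 reach 0.

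The inhibitors were measured at very different depth. Serping1 (ENSRNOG00000007457) had 24, 10 and 14 counts in the libraries labelled Ad-RNF128, against 6 and 7 in Ad-GFP replicates 2 and 3 and 9 in Ad-GFP replicate 1. These are 1.4, 0.461 and 0.727 CPM in the libraries labelled Ad-RNF128, against 0.332, 0.328 and, in replicate 1, 0.55 CPM in Ad-GFP. The groups overlapped once Ad-GFP replicate 1 was included, and every Poisson interval overlapped another group's. Serping1 passed the low-count filter, at 0.519 CPM, only through the libraries labelled Ad-RNF128. Its log2 change of 1.17 ± 0.53 did not pass the test. The change was 1.32 with library totals alone and 1.51 without Ad-RNF128 replicate 2, and it was called in both. A gene admitted in this way had to differ, so these values and calls are a description, given without p.

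Cd55 (ENSRNOG00000003927), which speeds the decay of convertases, was at 37.1, 38.3 and 34.9 CPM in the libraries labelled Ad-RNF128, against 29.7 and 21.6 CPM in Ad-GFP replicates 2 and 3 and 0.795 CPM in Ad-GFP replicate 1. All 3 libraries labelled Ad-RNF128 were above the controls, and the 2 controls also differed from each other. The log2 change was 0.38 ± 0.10 (1.3-fold, edgeR adjusted p = 0.00617). Without Ad-GFP replicate 3 it was 0.18 and no longer called (edgeR adjusted p = 0.133). Over 6 libraries it was 0.89 ± 0.90 (edgeR adjusted p = 0.812).

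Cd59 (ENSRNOG00000042821; Cd59b in RefSeq), which blocks the final pore, was at 91.6, 87.1 and 75.9 CPM in the libraries labelled Ad-RNF128, against 79.4 and 70.4 CPM in Ad-GFP replicates 2 and 3 and 3.18 CPM in Ad-GFP replicate 1. The groups overlapped. The log2 change was 0.03 ± 0.08 (edgeR adjusted p = 0.786), and 0.53 ± 0.82 over 6 libraries (edgeR adjusted p = 0.914). The sign of so small a change flipped with the replicate block and with 2 of the single libraries left out.

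Ad-GFP replicate 1 did not treat the 7 genes alike. Its CPM was 0.0455 times the mean of Ad-GFP replicates 2 and 3 for C1s, 0.031 times for Cd55, 0.0425 times for Cd59 and 0.169 times for C1r. For C3, Cfb and Serping1 it was 1.42, 2.18 and 1.67 times that mean. The first 4 were also the most abundant of the 7 genes in each of the other 5 libraries. The fitted changes of C1s, Cd55 and Cd59 over 6 libraries were larger than those without this library, and that of Cfb was smaller.

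Genes with the most similar profile were listed by Pearson correlation of log2(CPM + 1) over the 6 libraries, among 9592 genes with a mean of at least 5 CPM (9593 for Serping1). They were Cbl, Sin3a and Slx4 for C1r, Atp9b, Mtmr3 and Slc8a1 for C1s, Psmd7, Plrg1 and Kitlg for Cd55, and Dnase1l1, Fbxo33 and Hccs for Cd59, each with r of at least 0.9997. The 6 points include the low value of Ad-GFP replicate 1 in each of these. For Cfb they were Hs1bp3, Mov10 and Fibin (r of 0.998 each). For Serping1 they were Vrk3, Tti2 and Tle2 (0.982, 0.979 and 0.926), and for C3 they included Hinfp and Mex3d (0.935 and 0.904). Grem1 and Lcn2 lay below the 5 CPM limit.

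The rest of the complement system was read from a list of 41 further genes, of which 30 had a row and 14 passed the low-count filter. Without Ad-GFP replicate 1, 9 of the 14 were called higher and 0 lower, where 28.9% of all tested genes were called higher and 28% lower. The median log2 change was 0.45, against 0.02 over all genes. Of the 9, C4b, Fcna, Csmd1 and Itgax passed the filter only through the libraries labelled Ad-RNF128, so that they had to differ. Their values below are a description, given without p, and these counts, those by pathway below and this median support nothing. Over 6 libraries edgeR called 0 of the 14 (1 at an unadjusted p under 0.05), limma-voom 0 and DESeq2 1, Itgax. The edgeR log2 changes over 6 libraries were 0.03 ± 0.61 for C1rl and 0.13 ± 0.74 for C4a. They were 0.44 ± 0.32 for Clu and 0.23 ± 0.31 for Colec11, each described below.

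Among classical pathway genes 3 of 3 tested were called higher (28.9% of all genes were), C4b having passed the filter only through the libraries labelled Ad-RNF128. C4b, a copy of the C4 gene that C1s cuts as protein, was at 5.67, 3.87 and 5.45 CPM in the libraries labelled Ad-RNF128, against 0.222 and 0.188 CPM in Ad-GFP replicates 2 and 3 and 1.71 CPM in Ad-GFP replicate 1. Its log2 change was 4.42 ± 0.36, resting on 8 counts in Ad-GFP replicates 2 and 3. C4a was at 2.98, 1.43 and 1.61 CPM in the libraries labelled Ad-RNF128, against 0.554 and 1.12 CPM in Ad-GFP replicates 2 and 3 and 1.47 CPM in Ad-GFP replicate 1, so the groups overlapped with that library (log2 change 1.04 ± 0.39, adjusted p = 0.035).

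C4a and C4b are near-identical copies, so how reads were split between them is uncertain. The 150 bases below, upstream of each gene in GRCr8 on the plus strand, show how alike the copies are, at chr20:4010156-4010305 for C4a and chr20:4201773-4201922 for C4b. They differ at 10 positions, in capitals. Over the longer windows of 250 bases, which run past the annotated start of at least 1 copy, 95.4% of 241 aligned bases were identical.
C4a: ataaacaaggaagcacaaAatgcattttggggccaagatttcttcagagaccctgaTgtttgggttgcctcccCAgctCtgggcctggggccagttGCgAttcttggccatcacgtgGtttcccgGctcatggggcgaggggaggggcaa
C4b: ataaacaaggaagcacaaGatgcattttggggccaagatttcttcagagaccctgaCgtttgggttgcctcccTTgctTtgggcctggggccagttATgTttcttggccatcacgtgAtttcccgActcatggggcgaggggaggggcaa
The third called gene, C1rl, a C1r-like protease gene beside C1r, was at 31.1, 29.1 and 31.8 CPM in the libraries labelled Ad-RNF128, against 13.1 and 15.7 CPM in Ad-GFP replicates 2 and 3 and 22.3 CPM in Ad-GFP replicate 1 (log2 change 0.93 ± 0.10, edgeR adjusted p = 2e-06). C1qa, C1qb and C1qc, which encode the recognition unit that carries C1r and C1s, had at most 4 counts in any library. Macrophages are a main source of C1q, and the leukocyte marker genes Ptprc and Adgre1 had at most 0.156 CPM in any library. Of the other markers of these cells, Csf1r, a macrophage growth factor receptor, was at 2.22, 2.67 and 1.97 CPM in the libraries labelled Ad-RNF128, against 0.388 and 0.469 CPM in Ad-GFP replicates 2 and 3 and 0.245 CPM in Ad-GFP replicate 1. The lysosomal gene Cd68 was at 0.702, 1.11 and 0.883 CPM in the libraries labelled Ad-RNF128, against 0.222 and 0.375 CPM in Ad-GFP replicates 2 and 3 and 0.367 CPM in Ad-GFP replicate 1. Both were higher in every library labelled Ad-RNF128 than in any control. The remaining markers were not. Cd14 was highest in Ad-GFP replicate 1, at 33.6 CPM. Cd163, Mrc1, Aif1 and Tyrobp had at most 0.673 CPM in any library, and Cd163 was at 0 in every library labelled Ad-RNF128. The summed level of 9 leukocyte markers was 22.2 to 22.3 CPM in the libraries labelled Ad-RNF128, against 16.7 and 16.8 CPM in Ad-GFP replicates 2 and 3 and 35.1 CPM in Ad-GFP replicate 1, most of it Cd14. Their part in the complement values was not tested.

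Of the regulators 2 of 3 tested, Clu and Csmd1, were called higher (28.9% of all genes were), Csmd1 having passed the filter only through the libraries labelled Ad-RNF128. Cfi, the protease that inactivates C3b, had 4, 8 and 1 counts in the libraries labelled Ad-RNF128 and 0 in every Ad-GFP library, too few to test.

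Clusterin (Clu), which binds forming attack complexes, was at 326, 302 and 299 CPM in the libraries labelled Ad-RNF128, against 173 and 193 CPM in Ad-GFP replicates 2 and 3 and 105 CPM in Ad-GFP replicate 1 (log2 change 0.60 ± 0.07, edgeR adjusted p = 8.76e-06). Csmd1, a membrane protein with complement control repeats, was at 1.64, 1.98 and 2.28 CPM in the libraries labelled Ad-RNF128, against 0.166 and 0.375 CPM in Ad-GFP replicates 2 and 3 and 0.856 CPM in Ad-GFP replicate 1 (log2 change 2.64 ± 0.40). Cr1l, the rodent convertase inhibitor Crry, was not called at -0.17 ± 0.09. On the log2 scale the surface regulators Cd55, Cd59 and Cr1l differed by 0.38, 0.03 and -0.17, and the membrane protein Csmd1 by 2.64. Secreted clusterin differed by 0.60 and Serping1 by 1.17. Csmd1 and Serping1 passed the filter only through the libraries labelled Ad-RNF128, so their values are a description.

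In the lectin pathway 2 of 4 tested genes, Colec11 and Fcna, were called higher (28.9% of all genes were), Fcna having passed the filter only through the libraries labelled Ad-RNF128. Colec11, a sugar-binding collectin, was at 867, 806 and 830 CPM in the libraries labelled Ad-RNF128, against 598 and 613 CPM in Ad-GFP replicates 2 and 3 and 301 CPM in Ad-GFP replicate 1 (log2 change 0.31 ± 0.06, edgeR adjusted p = 0.000892). Fcna, a ficolin, had 22, 22 and 34 counts in the libraries labelled Ad-RNF128, against 0 and 4 in Ad-GFP replicates 2 and 3 and 26 in Ad-GFP replicate 1, so it overlapped with that library (log2 change 3.50 ± 0.63 without it). Masp1 and Masp2, the proteases of this pathway, had log2 changes of 0.11 ± 0.08 and -0.17 ± 0.23 and did not pass.

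Of the receptors and binding proteins 2 of 2 tested, Itgax and C1qbp, were called higher (28.9% of all genes were), Itgax having passed the filter only through the libraries labelled Ad-RNF128. Itgax, the alpha chain of complement receptor 4, was at 25.3, 28.0 and 25.4 CPM in the libraries labelled Ad-RNF128, against 0.222 and 0.422 CPM in Ad-GFP replicates 2 and 3 and 1.9 CPM in Ad-GFP replicate 1. Its log2 change was 6.13 ± 0.20, and 3.88 ± 1.20 over 6 libraries. The macrophage markers Csf1r and Cd68, given above, were also higher with this label, while Ptprc and Adgre1 were near 0. None of the other leukocyte markers was higher in every library labelled Ad-RNF128 than in every control. Its partner chain Itgb2, without which the receptor is not known to reach the surface, had 4, 0 and 0 counts in the libraries labelled Ad-RNF128, against 0 and 3 in Ad-GFP replicates 2 and 3 and 1 in Ad-GFP replicate 1. C1qbp, a mitochondrial protein that can bind C1q, was at 134, 142 and 137 CPM in the libraries labelled Ad-RNF128, against 102 and 105 CPM in Ad-GFP replicates 2 and 3 and 223 CPM in Ad-GFP replicate 1 (log2 change 0.26 ± 0.07, edgeR adjusted p = 0.0042; -0.97 ± 0.73 over 6 libraries).

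The alternative and terminal pathways gave no call in the fit without Ad-GFP replicate 1. Cfp (properdin, which stabilises the alternative convertase) and C8g (a subunit of C8) had log2 changes of -0.28 ± 0.25 and -0.31 ± 0.19. C5, C6 and C9 had at most 7 counts in any library, and C7, C8a and C8b were not analysed here. The receptor gene C3ar1 had at most 1 count in any library, and C5ar2 at most 8.

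**Figure D5:**
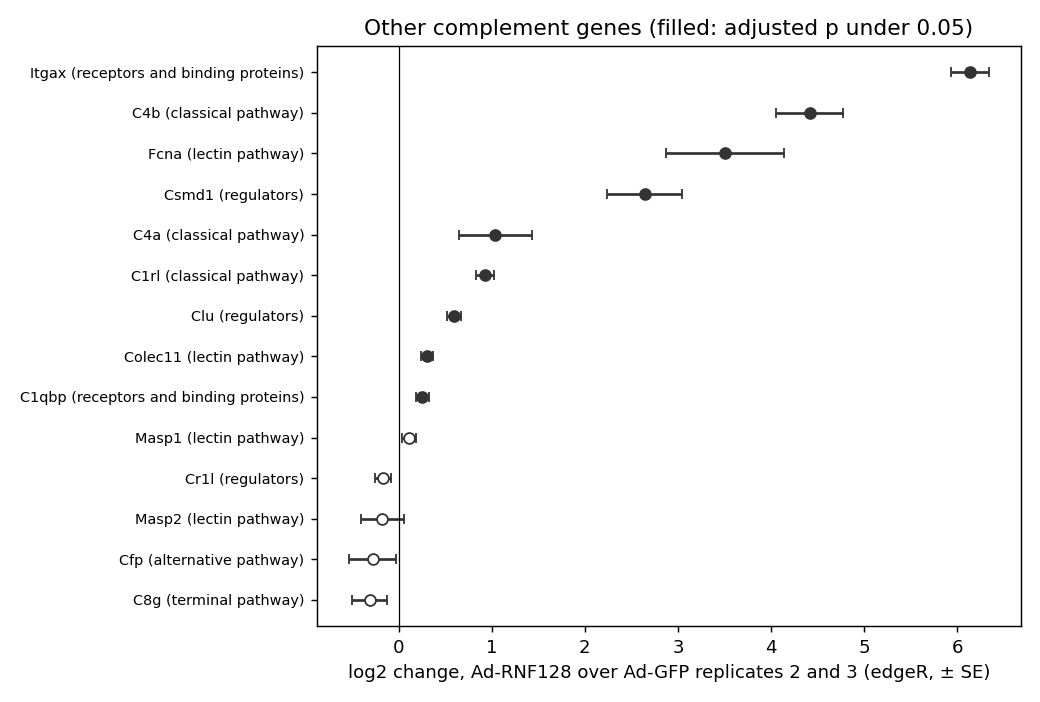
Log2 change (edgeR, bars ± SE) of the 14 other complement genes that passed the low-count filter, in the libraries labelled Ad-RNF128 over Ad-GFP replicates 2 and 3; filled points have an adjusted p under 0.05. Itgax (6.13) and C4b (4.42) are at the top, and no gene is called lower; C4b, Fcna, Csmd1 and Itgax passed the filter only through the libraries labelled Ad-RNF128.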

How the data were processed

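PolyA RNA (1.5 µg input, per the labels' protocols) was sequenced. The deposited values are read counts per gene, from HISAT2 (version not listed) and HTSeq 0.13.5 on the rat build mRatBN7.2, per the submitters' processing notes; the deposited column of Ad-GFP replicate 1 was read as holding expected counts, since 1 value (344.5) is not whole, and was rounded. Of the rows, 106 repeat an earlier ID. Groups and replicate numbers come from the titles. CPM used library totals. Over all rows, edgeR 4.0.16 in R 4.3.3 (filterByExpr, TMM, quasi-likelihood F-test, Benjamini-Hochberg) was fitted to 6 libraries and again without Ad-GFP replicate 1. The SE was derived from the log2 change and its F statistic. With 2 controls left, spread is pooled over both groups. DESeq2 1.42.0 and limma-voom (limma 3.58.1) were among the alternatives. The fits were tested on simulated data in which changes were planted in some genes. The fit over 6 libraries made no call there, so it recovered none of the planted changes. The outcome of the other fit is not reported here. Named are all 8 members, the called genes of a list of other complement genes, and the 3 genes most like each member (some items that these rules name are not reported here, and the list's counts leave them out); members, lists and the second comparison were chosen with earlier results of these data known. Intervals are exact, at 95%, and cover counting error only. Replicates differed by more than sampling noise, with a chi-square per gene of at least 4.13. Promoters are RefSeq's, on GRCr8, and their positions were not used with the counts.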

Additional observations from a re-analysis of the deposited data

How the results depend on the processing

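Without Ad-GFP replicate 1, the 3 higher calls became 1 when a log2 change of at least 1 was required. The 9 higher calls of other complement genes became 5, and the cause is the added size limit. Of all 13173 genes tested, 1102 were called higher under that limit. The 5 include C4b, Fcna, Csmd1 and Itgax, which passed the low-count filter only through the libraries labelled Ad-RNF128, so these counts support nothing. The 1 lower call (C1r) was 0 with library totals only, with an adjusted p under 0.01 and with the size limit. Leaving out 1 further library labelled Ad-RNF128 gave 3 to 4 higher and 0 to 2 lower calls. Serping1, admitted by the filter as above, was among the 4. The other genes had 8 to 9 higher and 0 lower calls, with the genes so admitted not left out. Over all genes these fits called 3527 to 3716 higher and 3215 to 3409 lower, of 12936 to 13079 tested. Leaving out another control leaves 1, so only effect sizes are given, such as -0.31 for Cr1l without Ad-GFP replicate 3. With any 1 further library left out, the log2 change of C3 ran from -2.44 to 1.20 and that of Cd59 from -0.034 to 0.11. C3 was -0.93 with limma-voom, and the cause was not tested. Over 6 libraries DESeq2 called 1 other gene higher. Leaving out 1 library gave 0 to 3 higher and 0 to 1 lower calls, and 0 to 9 higher among the other genes, all calls coming from leaving out Ad-GFP replicate 1. The log2 change ran from -3.26 to 0.62 for C3, from -0.17 to 0.39 for C1r and from -0.17 to 1.17 for Serping1, and C3 was 0.58 with library totals only. Scaling by library totals moved the median change of all genes to 0.35 over 6 libraries, and the share of calls that were higher without Ad-GFP replicate 1 to 69%, against 50.8%.

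The replicate numbers share only a number: same-numbered libraries had correlations of their deviations from -0.199 to 0.027 over 6 libraries, and 0.074 and 0.182 without Ad-GFP replicate 1. With the number as a replicate block, the counts of calls were 3 higher and 1 lower, and 9 and 0 among the other genes, as without it, and Cd59 was -0.029. Of 198 values of single genes under an alternative, 173 kept sign and side of the threshold and 11 changed sign. The stricter adjusted p and the size limit reused the main fit, so values under them could not change sign. Over 6 libraries, where none of these genes was called, they could not change side either. Among those that kept their sign, 9 lost and 5 gained a call. The gained calls include those of Serping1 given above, a gene that had to differ. Low counts limit Serping1, C3 and the genes below the filter.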
